A study of Mus musculus with 4 samples.

Results

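Follicular helper genes were followed across 4 RNA libraries of mouse spleen T cells. The set holds 10 genes of T follicular helper (Tfh) cells and of their natural killer T counterpart, NKTfh cells, and all 10 were found by symbol among the 22487 gene symbols used. They are the transcription factor genes Bcl6, Tox and Tox2, the receptor genes Pdcd1, Icos and Cxcr5, the surface ligand gene Cd200, and the genes of the secreted proteins Il21, Angptl2 and Sostdc1. The libraries came from invariant natural killer T (iNKT) cells and from CD44-high CD4+ T cells (CD44hi), on a C57BL/6 background. The groups were KO iNKT, WT iNKT, KO CD44hi and WT CD44hi, with 1 library each. KO stands for the genotype Ezh2fl/fl CD4-Cre, in which Cre under the control of Cd4 sequences removes the floxed part of both Ezh2 copies in T cells, from the thymus onwards, and WT for wild type. Ezh2 encodes the methyltransferase of Polycomb repressive complex 2 (PRC2). Sorting used a CD1d tetramer carrying PBS-57 together with staining of the beta chain of the T cell receptor for iNKT cells, and that same chain with CD4 and CD44 for CD44hi cells. The sources used here do not say if the CD44hi gate left out cells that bind the tetramer, and give no age, sex or number of mice behind a library.

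Tfh cells are CD4+ T cells that help B cells in germinal centres. BCL6 represses genes of other T cell fates, CXCR5 draws the cell towards the CXCL13 made in B cell follicles, ICOS and PD-1 take signals there from B cells, and IL-21 acts back on the B cells. NKTfh cells are iNKT cells that take on this program after immunisation with lipid antigens. PRC2 trimethylates lysine 27 of histone H3 and keeps genes silent, many of them at CpG-rich start sites.

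The windows upstream of 4 of the genes are shown because 3 of them, Pdcd1, Il21 and Angptl2, were higher in KO iNKT and lower in KO CD44hi, while Bcl6, the factor that directs the program, moved less in both. Each run is the 250 bases before the RefSeq start site (assembly GRCm38.p6, the build called mm10), 5′ to 3′ on the gene's strand, with CpG dinucleotides in capitals. Pdcd1 (chr1:94052554-94052803, minus strand) has 3 CpG in this stretch, Il21 (chr3:37232637-37232886, minus) 5, Angptl2 (chr2:33215711-33215960, plus) 9 and the upstream start of Bcl6 (chr16:23988853-23989102, minus) 21.
Pdcd1: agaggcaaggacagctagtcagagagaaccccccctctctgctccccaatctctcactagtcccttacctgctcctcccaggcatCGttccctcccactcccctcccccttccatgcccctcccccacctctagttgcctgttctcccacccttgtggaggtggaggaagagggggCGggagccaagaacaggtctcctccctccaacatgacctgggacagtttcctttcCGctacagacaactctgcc
Il21: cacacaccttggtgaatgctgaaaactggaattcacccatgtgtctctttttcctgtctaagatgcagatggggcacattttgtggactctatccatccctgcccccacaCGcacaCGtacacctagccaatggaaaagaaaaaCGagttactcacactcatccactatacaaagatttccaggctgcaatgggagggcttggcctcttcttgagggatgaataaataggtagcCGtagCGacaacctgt
Angptl2: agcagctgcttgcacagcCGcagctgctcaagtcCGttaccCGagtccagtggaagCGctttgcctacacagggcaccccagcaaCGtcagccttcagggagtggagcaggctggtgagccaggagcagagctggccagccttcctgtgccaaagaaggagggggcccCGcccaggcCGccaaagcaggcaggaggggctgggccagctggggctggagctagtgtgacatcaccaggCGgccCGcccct
Bcl6: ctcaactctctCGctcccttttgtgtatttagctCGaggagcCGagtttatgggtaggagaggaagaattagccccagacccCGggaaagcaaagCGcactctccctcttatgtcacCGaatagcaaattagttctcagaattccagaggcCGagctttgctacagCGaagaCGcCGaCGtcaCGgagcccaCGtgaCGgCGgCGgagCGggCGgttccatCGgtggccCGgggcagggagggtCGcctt
The RefSeq windows, which run from 250 bases before to 50 after a start, matched 6 of the 10 genes (Bcl6, Tox2, Pdcd1, Cd200, Il21 and Angptl2). Over 32851 such windows of all genes the median was 7 CpG, with quartiles of 3 and 20. The windows of Pdcd1 and Il21 held 5 CpG each, that of Cd200 held 8 and that of Angptl2 held 9, all close to that median. Bcl6 held 31 at one start and 14 at the other, and 3 of the 5 Tox2 windows held 38, 39 and 23 against 7 and 8 in the others, which start downstream. Of 4 motifs searched on both strands, the AP-1 site TGANTCA and the EGR site GCGTGGGCG were in none of the windows of the 6 genes, against 7.81% and 0.612% of all windows. The NFAT core GGAAA was in the windows of Pdcd1 (2 matches), Il21 (3) and Bcl6 (4 and 1) and in 2 Tox2 windows, and it occurs in 61.3% of all windows. The TCF/LEF core CTTTGA, found in 16.0% of windows, was in 1 Bcl6 window and in 2 overlapping Tox2 windows. A match describes letters only.

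Values are FPKM, in which a gene's fragments are divided by its length and by the depth of its library. The steps between low FPKM values put the depth of KO iNKT at 1.08 times that of WT iNKT, of KO CD44hi at 4.89 times and of WT CD44hi at 3.69 times. A batch that differed between the iNKT and CD44hi libraries could not be separated from cell type. Each group has 1 library, so differences lack a check by replicates and are given without tests or p-values. A gene counts as measured in a comparison if either library reaches 1 FPKM, and as called higher or lower at a 2-fold difference of log2(FPKM + 1). For a gene that reaches 1 FPKM in only 1 library of a comparison, this filter fixes the direction of the difference. Ratios are plain ratios of FPKM with a 95% exact (Clopper-Pearson) interval from estimated fragments, which covers counting error only. Ezh2 was at 16.8 FPKM in KO iNKT and 15.3 in WT iNKT, and at 18.5 in KO CD44hi and 28.9 in WT CD44hi. A value over the whole gene still includes exons that Cre leaves in place, so it does not check the genotype labels. Zbtb16, which encodes the iNKT factor PLZF, was at 63.1 FPKM in KO iNKT and 28.2 in WT iNKT. Cd4 was at 252 FPKM in KO CD44hi and 405 in WT CD44hi, and of the CD8 genes, Cd8a was at 3.27 FPKM in KO CD44hi and 1.33 in WT CD44hi and Cd8b1 at 13.8 in KO CD44hi and 9.87 in WT CD44hi, with both below 1 in the iNKT libraries. Transcripts of the Y-linked gene Ddx3y were at 11.5 FPKM in WT CD44hi and at 0.00445 or less in the other libraries, while Xist, transcribed from the inactive X chromosome of females, was at 46.8 in WT CD44hi and between 55.3 and 80.0 in the others. The WT CD44hi library thus holds transcripts of both sexes, and this difference cannot be told apart from genotype in the CD44hi pair or from cell type in the WT pair.

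Across the 4 libraries most of the follicular helper genes shared one broad pattern. Of the 9 genes measured in the iNKT pair, 7 were called higher in KO iNKT and 0 lower, and their log2 differences had a median of 3.60. Among all 10821 genes measured in that pair, 6.08% were called higher and 3.35% lower, and the median was 0.05. In the CD44hi pair the direction was the opposite: 5 of 10 were called lower in KO CD44hi and 0 higher, with a median of -0.98, against 1.14% called lower and 2.44% higher among 11357 genes and a median of 0.01. All 9 measured genes had differences above 0 in the iNKT pair, and 9 of 10 had differences below 0 in the CD44hi pair. A difference above 0 in iNKT and below 0 in CD44hi was seen for 23.9% of 11722 genes. In the iNKT pair Tox2, Cxcr5, Il21 and Angptl2 reached 1 FPKM only in KO iNKT, so the filter fixed their direction there. With no filter, 7 of the 10 genes were called higher and 0 lower, against 658 and 363 of 22487 genes. The genes summed to 584 FPKM in KO iNKT and 162 in WT iNKT, and to 213 in KO CD44hi and 384 in WT CD44hi. Icos, which had the highest FPKM of the set in all 4 libraries, and Sostdc1, nearly absent from iNKT cells, departed from it most. Bcl6 moved in the same directions as most of the set but, like Icos, was called in neither pair. In bulk RNA, fewer cells that carry a transcript and less of it per cell cannot be told apart.

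**Figure D1:**
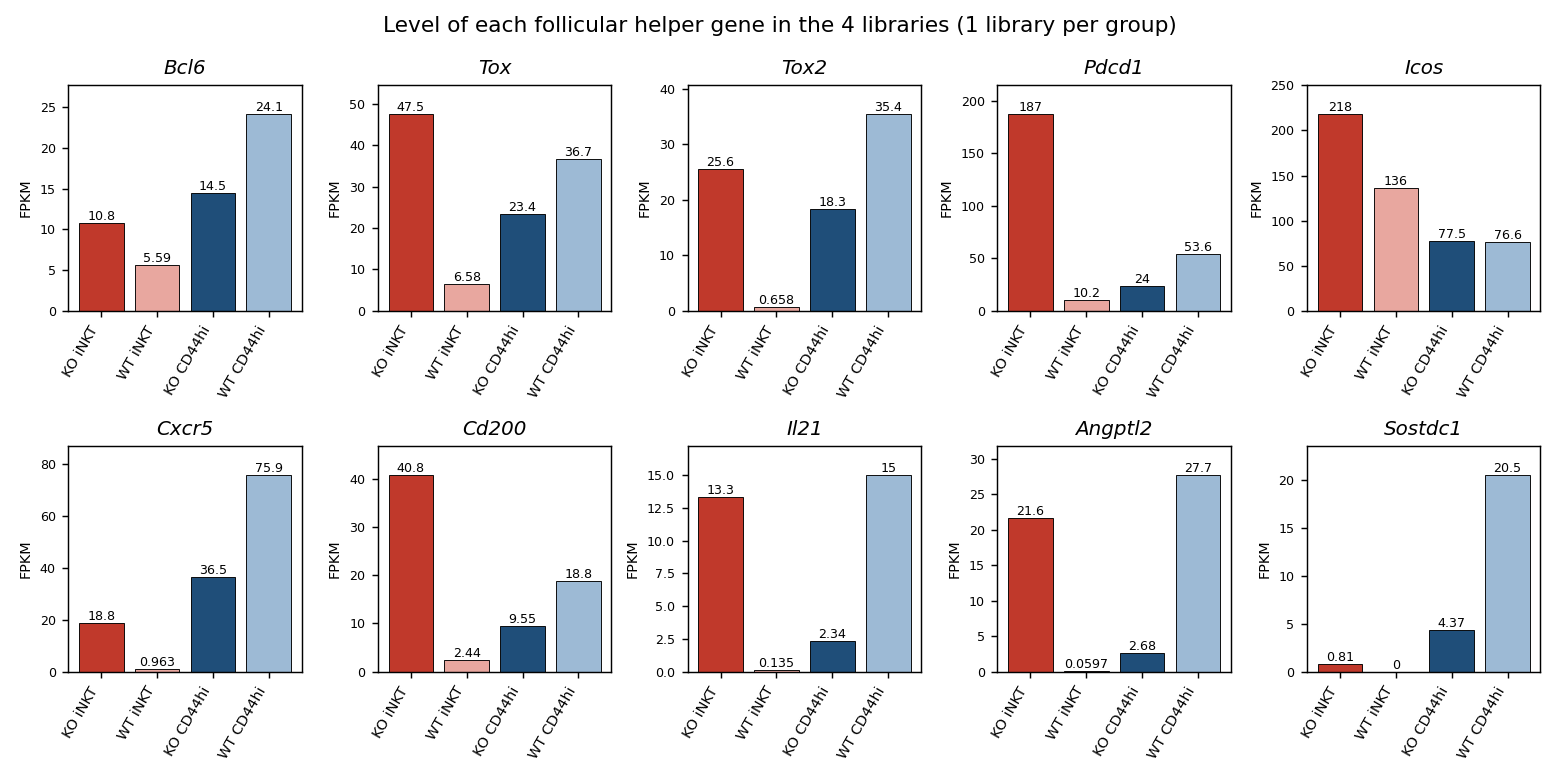
Bars give the FPKM of each gene (1 panel per gene, linear axis from 0) in KO iNKT, WT iNKT, KO CD44hi and WT CD44hi, with 1 library per group and so no error bar. In every panel KO iNKT stands above WT iNKT, and in every panel but that of Icos KO CD44hi stands below WT CD44hi.

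Among the transcription factors, Bcl6 had the smallest genotype difference in iNKT cells and Tox the smallest in CD44hi cells. Bcl6 (chromosome 16, 23965052 to 23988852, minus strand; coordinates here and below from GENCODE M21 on GRCm38), the repressor required for Tfh differentiation, was at 10.8 FPKM in KO iNKT, 5.59 in WT iNKT, 14.5 in KO CD44hi and 24.1 in WT CD44hi. Both CD44hi libraries lay above both iNKT libraries. The ratio of KO iNKT to WT iNKT was 1.93 (interval 1.51 to 2.496), a log2(FPKM + 1) difference of 0.84, and the ratio of KO CD44hi to WT CD44hi was 0.600 (0.556 to 0.647), a difference of -0.70, neither of which reached 2-fold. Prdm1, which encodes BLIMP-1, the factor that represses Bcl6 and is repressed by it, was lower in KO in both cell types. It was at 1.74 FPKM in KO iNKT and 12.4 in WT iNKT, and at 2.10 in KO CD44hi and 6.27 in WT CD44hi. Bcl6 therefore stood at 6.21 times the FPKM of Prdm1 in KO iNKT and at 0.450 times in WT iNKT, against 6.87 times in KO CD44hi and 3.84 times in WT CD44hi. WT iNKT was the single library in which Prdm1 exceeded Bcl6.

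Tox and Tox2, which encode related DNA-binding proteins of the HMG box family, differed more than Bcl6 in iNKT cells. Tox (chromosome 4, 6686353 to 6991557, minus strand), a factor of CD4 T cell development that is also known from exhausted T cells, was at 47.5 FPKM in KO iNKT, 6.58 in WT iNKT, 23.4 in KO CD44hi and 36.7 in WT CD44hi. KO iNKT was the highest library and WT iNKT the lowest. The KO to WT ratio was 7.22 (6.01 to 8.78) in iNKT and 0.639 (0.604 to 0.677) in CD44hi. Tox2 (chromosome 2, 163203125 to 163324170, plus strand), a promoter of Tfh differentiation in mice, was at 25.6 FPKM in KO iNKT, 0.658 in WT iNKT, 18.3 in KO CD44hi and 35.4 in WT CD44hi. WT iNKT held about 9 estimated Tox2 fragments, so the ratio of 38.9 in iNKT is wide (21.3 to 90.1), while the ratio of 0.517 in CD44hi (0.481 to 0.555) just missed the 2-fold rule at a log2 difference of -0.92. The other paralogs did not share the pattern: Tox4 was at 23.1 FPKM in KO iNKT and 20.6 in WT iNKT, and at 23.5 in KO CD44hi and 23.6 in WT CD44hi. Tox3 was at 0.106 FPKM in KO CD44hi and listed at 0 in the other 3 libraries.

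Of the receptors, Pdcd1 and Cxcr5 were called in opposite directions in the iNKT and CD44hi pairs, and Icos in neither. Pdcd1 (chromosome 1, 94038305 to 94052553, minus strand) encodes PD-1, the inhibitory receptor that Tfh cells carry at high density. It was at 187 FPKM in KO iNKT, 10.2 in WT iNKT, 24.0 in KO CD44hi and 53.6 in WT CD44hi, so that KO iNKT exceeded every other library. The KO to WT ratio was 18.3 (14.9 to 22.8) in iNKT and 0.448 (0.415 to 0.483) in CD44hi. KO iNKT stood at 3.49 times the level of WT CD44hi, the next highest library (3.27 to 3.72). The PD-1 ligand gene Cd274 was at 37.6 FPKM in KO iNKT and 23.4 in WT iNKT, and at 27.5 in KO CD44hi and 27.4 in WT CD44hi.

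Cxcr5 (chromosome 9, 44511787 to 44561877, minus strand) was at 18.8 FPKM in KO iNKT, 0.963 in WT iNKT, 36.5 in KO CD44hi and 75.9 in WT CD44hi. Unlike Pdcd1, its level in KO iNKT stayed below both CD44hi libraries. The ratio was 19.5 (11.6 to 38.3) in iNKT, from about 13 estimated fragments in WT iNKT, and 0.481 (0.457 to 0.506) in CD44hi, a log2 difference of -1.03 that lies close to the rule. Exons of Bcl9l on the plus strand cover 110 of the 2899 exonic bases of Cxcr5, and the library kit keeps no strand information. Bcl9l itself was at 23.5 FPKM in KO iNKT and 15.9 in WT iNKT, and at 34.1 in KO CD44hi and 28.4 in WT CD44hi. Its direction was that of Cxcr5 in iNKT and the opposite in CD44hi. The part of the shared bases in the Cxcr5 levels was not tested. No library held more than 0.0548 FPKM of Cxcl13, the ligand gene.

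Icos (chromosome 1, 60977927 to 61000320, plus strand), the CD28-family receptor that sustains Tfh cells through ICOS ligand, was at 218 FPKM in KO iNKT, 136 in WT iNKT, 77.5 in KO CD44hi and 76.6 in WT CD44hi. It was the one gene of the set that was higher in both iNKT libraries than in both CD44hi libraries. The KO to WT ratio was 1.60 (1.52 to 1.69) in iNKT and 1.01 (0.974 to 1.05) in CD44hi, where the interval holds 1. Of its relatives on chromosome 1, Ctla4 had a different order of libraries and Cd28 was, like Icos, higher in both iNKT libraries. Ctla4, the inhibitory receptor gene that lies 62.1 kb to the left, was at 4.87 FPKM in KO iNKT and 6.39 in WT iNKT, and at 33.8 in KO CD44hi and 123 in WT CD44hi. Cd28 was at 137 FPKM in KO iNKT and 98.8 in WT iNKT, and at 57.1 in KO CD44hi and 80.2 in WT CD44hi.

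Cd200 (chromosome 16, 45382135 to 45409053, minus strand), which encodes a surface glycoprotein that engages the inhibitory receptor CD200R, was at 40.8 FPKM in KO iNKT, 2.44 in WT iNKT, 9.55 in KO CD44hi and 18.8 in WT CD44hi. As for Pdcd1 and Tox, KO iNKT was the highest library. The KO to WT ratio was 16.7 (11.4 to 25.4) in iNKT and 0.507 (0.453 to 0.566) in CD44hi. Cd200r1, the receptor gene, was at 3.82 FPKM in KO iNKT and 4.36 in WT iNKT, and at 9.96 in KO CD44hi and 13.2 in WT CD44hi. Btla, the nearest listed gene on the left of Cd200 at 124 kb and itself an inhibitory receptor of Tfh cells, was at 70.4 FPKM in KO iNKT and 36.4 in WT iNKT, and at 38.7 in KO CD44hi and 46.9 in WT CD44hi.

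Of the secreted products, Il21 and Angptl2 were called in opposite directions in the iNKT and CD44hi pairs, and Sostdc1 was measured only in CD44hi. Il21 (chromosome 3, 37222759 to 37232636, minus strand), the cytokine with which Tfh cells drive germinal centre and plasma cell responses, was at 13.3 FPKM in KO iNKT, 0.135 in WT iNKT, 2.34 in KO CD44hi and 14.99 in WT CD44hi. KO iNKT and WT CD44hi did not differ beyond counting error, with a ratio of WT CD44hi to KO iNKT of 1.13 (0.969 to 1.31). The value in WT iNKT rests on about 2 estimated fragments, which gives a KO to WT ratio of 98.6 with an interval of 27.3 to 830, and the ratio in CD44hi was 0.156 (0.132 to 0.184). The neighbouring cytokine gene Il2, 96.8 kb away, stayed low throughout, at 0.241 FPKM in KO iNKT and 0.522 in WT iNKT, and at 0.799 in KO CD44hi and 2.405 in WT CD44hi. Il21r, which encodes the receptor chain specific for IL-21, was at 45.8 FPKM in KO iNKT and 39.95 in WT iNKT, and at 62.4 in KO CD44hi and 75.6 in WT CD44hi.

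Angptl2 (chromosome 2, 33216069 to 33247717, plus strand), which encodes a secreted angiopoietin-like glycoprotein, was at 21.6 FPKM in KO iNKT, 0.0597 in WT iNKT, 2.68 in KO CD44hi and 27.7 in WT CD44hi. The WT iNKT value corresponds to about 1 estimated fragment. The KO to WT ratio in iNKT was 362 with an interval of 62.9 to 13953, so its size is poorly fixed, and the ratio in CD44hi was 0.0969 (0.0835 to 0.112). The log2 difference of 4.42 in iNKT ranked 7 from the top of 10821 genes, and that of -2.96 in CD44hi ranked 3 from the bottom of 11357. Angptl2 lies within Ralgps1, a gene of the opposite strand, with no exonic base shared; Ralgps1 was at 2.62 FPKM in KO iNKT and 1.37 in WT iNKT, and at 2.81 in KO CD44hi and 2.69 in WT CD44hi. Of the other angiopoietin-like genes, Angptl4 was at 3.69 FPKM in KO iNKT and 1.94 in WT iNKT, and at 3.33 in KO CD44hi and 1.85 in WT CD44hi.

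Sostdc1 (chromosome 12, 36314139 to 36318452, plus strand) encodes a secreted antagonist of BMP and Wnt signalling that is made by Tfh cells in mice. It was at 0.810 FPKM in KO iNKT, listed at 0 in WT iNKT, and at 4.37 in KO CD44hi and 20.5 in WT CD44hi. The KO iNKT value corresponds to about 8 estimated fragments, and 3 fragments in WT iNKT would be 0.345 FPKM, so Sostdc1 was not measured under the 1 FPKM rule in that pair and no ratio is given. In CD44hi the KO to WT ratio was 0.213 (0.180 to 0.251). Both CD44hi libraries lay above KO iNKT, by 5.39-fold for KO CD44hi (2.55 to 12.1). Bmpr1a, a BMP receptor gene, was higher in KO in both cell types, at 6.38 FPKM in KO iNKT and 0.330 in WT iNKT, and at 4.93 in KO CD44hi and 0.458 in WT CD44hi.

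**Figure D2:**
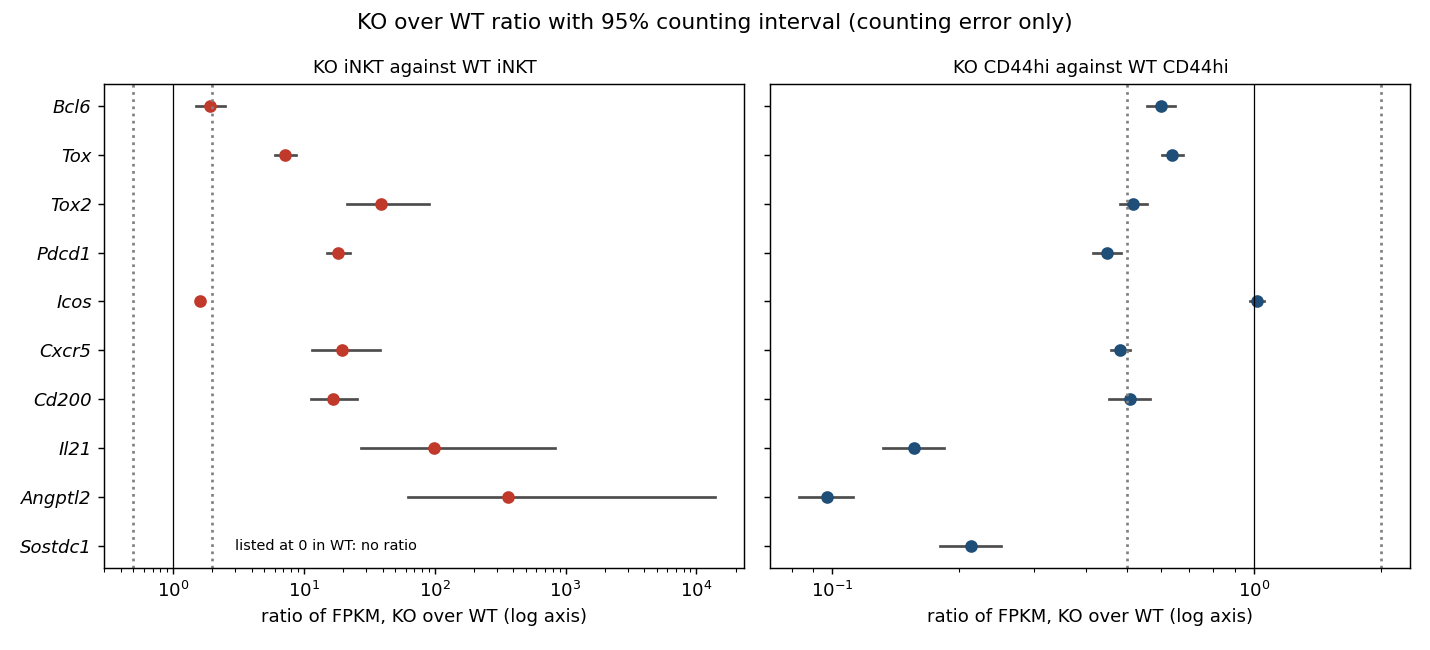
Points give the ratio of FPKM of KO over WT for each gene in the iNKT pair (left) and the CD44hi pair (right) on a log axis, with lines for the 95% counting interval and dotted lines at 2-fold. The iNKT ratios run from 1.60 for Icos to 362 for Angptl2, and the CD44hi ratios from 0.0969 for Angptl2 to 1.01 for Icos, whose interval holds 1; Sostdc1, listed at 0 in WT iNKT, has no ratio on the left.

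Taking the difference of the KO minus WT differences, iNKT minus CD44hi, 9 of the 10 genes were called higher and 0 lower, against 6.15% called higher and 5.38% lower among 11722 genes, and the median was 4.44 against 0.03 over all genes. Angptl2 (7.38) and Il21 (5.91) ranked 1 and 2 among all 11722 genes. Pdcd1 (5.19) ranked 5, Tox2 (4.92) 7, Cd200 (4.51) 10 and Cxcr5 (4.37) 12. Tox followed at 3.30, Sostdc1 at 2.86 and Bcl6 at 1.54, and Icos at 0.66 was the gene that was not called. Being called higher in KO iNKT and lower in KO CD44hi at once was rare: 27 of 11722 genes (0.23%) met both, which is 4.1% of those higher in KO iNKT, and 4 of them, Pdcd1, Cxcr5, Il21 and Angptl2, belong to the follicular helper set. These 2 pairs share no library, but the difference itself was not tested.

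**Figure D3:**
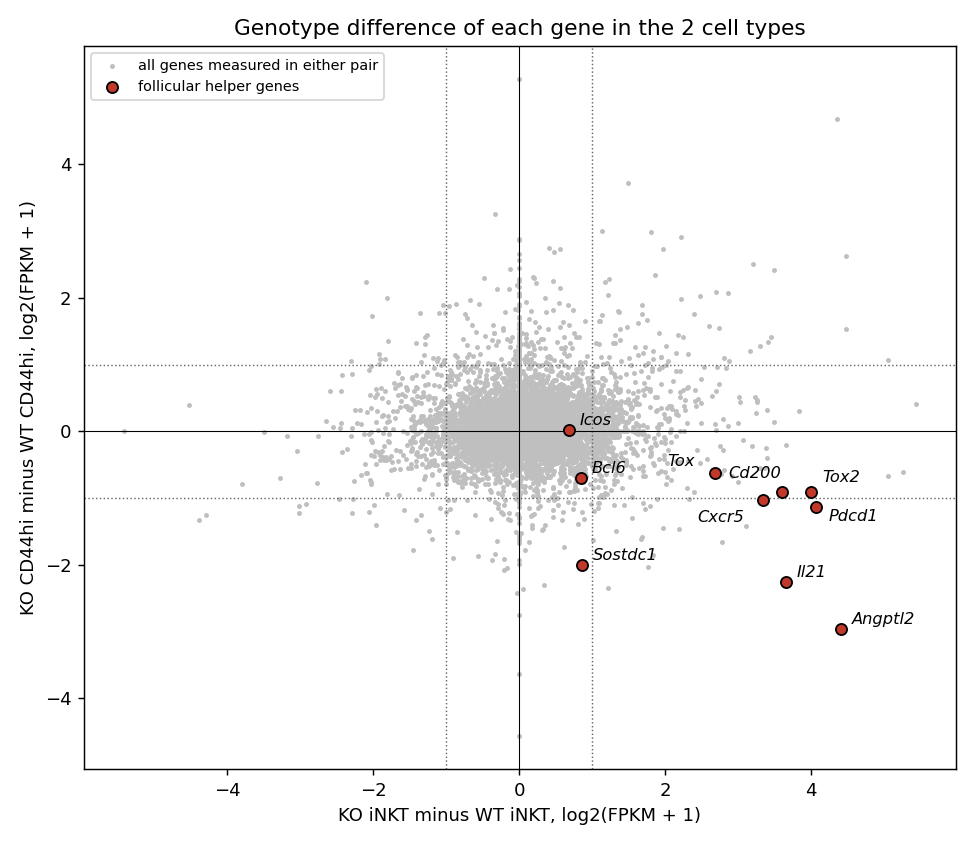
Each point is a gene, with the KO minus WT difference of log2(FPKM + 1) in iNKT cells on the x axis and in CD44hi cells on the y axis; grey points are the 11722 genes measured in either pair, red points the follicular helper genes, and dotted lines mark 2-fold. Pdcd1, Cxcr5, Il21 and Angptl2 lie beyond 2-fold to the lower right, while Icos and Bcl6 lie within 2-fold on both axes.

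Compared between cell types, the genes separated WT iNKT from the rest. Of the 10 genes, 9 were called lower in WT iNKT than in WT CD44hi and 0 higher, and the median of their log2 differences was -3.17, against 10.9% called lower and 3.67% higher among 11223 genes and a median of -0.06. Cxcr5 differed most (-5.29, rank 8 from the bottom), followed by Angptl2 (-4.76), Tox2 (-4.46) and Sostdc1 (-4.43). These genes and Il21 were below 1 FPKM in WT iNKT, so the filter fixed their direction here. The same held for Sostdc1 between KO iNKT and KO CD44hi. Between KO iNKT and KO CD44hi the picture was mixed, with 5 genes called higher in KO iNKT (Pdcd1, Angptl2, Il21, Cd200 and Icos) and 1 lower (Sostdc1). Among 11475 genes, 3.03% were called higher and 9.07% lower in that comparison, and the median of the 10 genes was 1.23 against -0.02. Tox, at a log2 difference of 0.99, was just within 2-fold, and Bcl6 (-0.39) and Cxcr5 (-0.92) were lower in KO iNKT by less than 2-fold. These comparisons share libraries with the genotype comparisons and are not independent of them. Between the WT libraries, 15 of 17 measured B cell genes were called lower in WT iNKT and 0 higher. So were 14 of 15 myeloid genes and 12 of 16 regulatory T cell genes, with 0 higher. Among all genes 10.9% were called lower there. The part of such cells in the differences of the follicular helper genes between cell types was not tested.

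The genes also differed in which library came first. WT CD44hi was the highest library for Bcl6, Tox2, Cxcr5, Il21, Angptl2 and Sostdc1, and KO iNKT for Tox, Pdcd1, Icos and Cd200. WT iNKT was the lowest library for 9 of the 10, and WT CD44hi was the lowest for Icos. Of the 30 pairs of neighbours in these orders, counting error could not separate 2, namely WT CD44hi from KO iNKT for Il21 and KO CD44hi from WT CD44hi for Icos.

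Genes outside the set with the profile closest to its median, by Euclidean distance of centred log2(FPKM + 1) over the 4 libraries among 8319 genes, were Tiam1, Egr2, Synpo, Sccpdh, Acot11, Spock2, Spry1, Marcksl1, Hivep3 and Vim. Tiam1, an activator of the GTPase RAC1, was the nearest (distance 0.42), at 18.9 FPKM in KO iNKT and 1.89 in WT iNKT, and at 9.68 in KO CD44hi and 32.7 in WT CD44hi. Egr2, a zinc finger factor induced by antigen receptor signals, came next (0.50), at 14.6 FPKM in KO iNKT and 1.96 in WT iNKT, and at 8.20 in KO CD44hi and 16.3 in WT CD44hi. On the same ranking Tox stood at place 4, Il21 at 9, Cd200 at 13, Tox2 at 44, Pdcd1 at 107, Angptl2 at 114 and Bcl6 at 116. Cxcr5 stood at 899, Sostdc1 at 4653 and Icos at 7116. The median was taken from these same genes, so their places do not test for a shared profile. Il21 and Angptl2 were each other's nearest gene (distance 0.76), and Cd200 was the nearest to Pdcd1 (0.69). Lag3, an inhibitory receptor gene, was the nearest to both Cxcr5 (0.43) and Tox2 (1.09). A profile over 4 libraries of unequal depth is a description only.

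Other genes of the Tfh program had smaller median differences, and part of them went the other way. Of 21 further Tfh transcription factors and signalling genes, 20 were measured in the iNKT pair, 8 were called higher in KO iNKT and 0 lower (median log2 difference 0.43), against 6.08% of all genes called higher. In the CD44hi pair 1 of 21 was called lower in KO CD44hi and 0 higher (median -0.29), against 1.14% of all genes called lower. Id3, an inhibitor of E proteins, had the largest difference in iNKT, at 175 FPKM in KO iNKT and 11.4 in WT iNKT, and stood at 47.9 in KO CD44hi and 38.7 in WT CD44hi. Tcf7, which encodes TCF-1, an early inducer of Bcl6, was at 558 FPKM in KO iNKT and 159 in WT iNKT, and at 429 in KO CD44hi and 505 in WT CD44hi. Batf, an AP-1 family factor that Tfh cells need, was at 76.0 FPKM in KO iNKT and 36.5 in WT iNKT, and at 49.3 in KO CD44hi and 82.2 in WT CD44hi. Maf, which promotes Il21 transcription, stayed within 2-fold, at 49.6 FPKM in KO iNKT and 36.7 in WT iNKT, and at 49.3 in KO CD44hi and 74.4 in WT CD44hi. Ascl2, a factor that induces Cxcr5, was the gene called lower in KO CD44hi, at 0.309 FPKM against 1.98 in WT CD44hi; in iNKT it was at 0.382 in KO and listed at 0 in WT. Sh2d1a, which encodes the adaptor SAP, differed little, at 159 FPKM in KO iNKT and 127 in WT iNKT, and at 59.8 in KO CD44hi and 65.9 in WT CD44hi.

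Of 20 further Tfh surface and secreted products found in the files, 6 of 15 measured were called higher in KO iNKT and 0 lower (median 0.86), and 7 of 17 were called lower in KO CD44hi and 0 higher (median -0.54). Among all genes 6.08% were called higher in KO iNKT and 1.14% lower in KO CD44hi. In the iNKT pair 6 of the 15, namely Cd40lg, Tnfrsf4, Cd84, Slamf1, Tigit and Nt5e, had differences below 0, none of which reached 2-fold. Those higher in KO iNKT included Lag3 (11.3 FPKM in KO iNKT, 0.538 in WT iNKT) and Tnfsf11, which encodes RANKL (61.9 in KO iNKT, 8.10 in WT iNKT). Rgs16, a regulator of chemokine receptor signalling, was called in both pairs, at 4.54 FPKM in KO iNKT and 0.636 in WT iNKT, and at 3.99 in KO CD44hi and 19.3 in WT CD44hi. Il4, the other B cell helper cytokine, was higher in KO in both cell types, at 118 FPKM in KO iNKT and 52.3 in WT iNKT, and at 11.9 in KO CD44hi and 8.03 in WT CD44hi, where it stayed within 2-fold. Cd40lg, whose product is the contact signal to B cells, was at 103 FPKM in KO iNKT and 110 in WT iNKT, and at 87.4 in KO CD44hi and 107 in WT CD44hi.

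Of 22 genes that oppose the Tfh program or are kept low in it, 11 were called lower in KO iNKT and 2 higher (median -1.05). Among all genes 3.35% were called lower and 6.08% higher in that pair. In the CD44hi pair 1 was called lower, Prdm1, and 0 higher (median -0.26), against 1.14% lower and 2.44% higher among all genes. Anxa1 was at 0.752 FPKM in KO iNKT and 14.95 in WT iNKT, and at 5.37 in KO CD44hi and 5.68 in WT CD44hi. The IL-2 receptor genes Il2ra (5.05 FPKM in KO iNKT, 23.7 in WT iNKT) and Il2rb (198 in KO iNKT, 814 in WT iNKT), whose signals restrain Tfh cells, were both lower, as was Tbx21, the gene of the type 1 factor T-bet (19.5 in KO iNKT, 70.4 in WT iNKT). Id2, the gene of an E protein inhibitor that opposes the Tfh fate, was at 441 FPKM in KO iNKT and 1172 in WT iNKT, and at 475 in KO CD44hi and 327 in WT CD44hi. The genes called higher were Ccr7 and Gpr183, receptors that place T cells in the T zone and at its border with the follicle. Klf2, a factor that opposes Tfh cells and drives S1pr1, was at 51.0 FPKM in KO iNKT and 47.7 in WT iNKT, and at 81.4 in KO CD44hi and 133 in WT CD44hi.

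**Figure D4:**
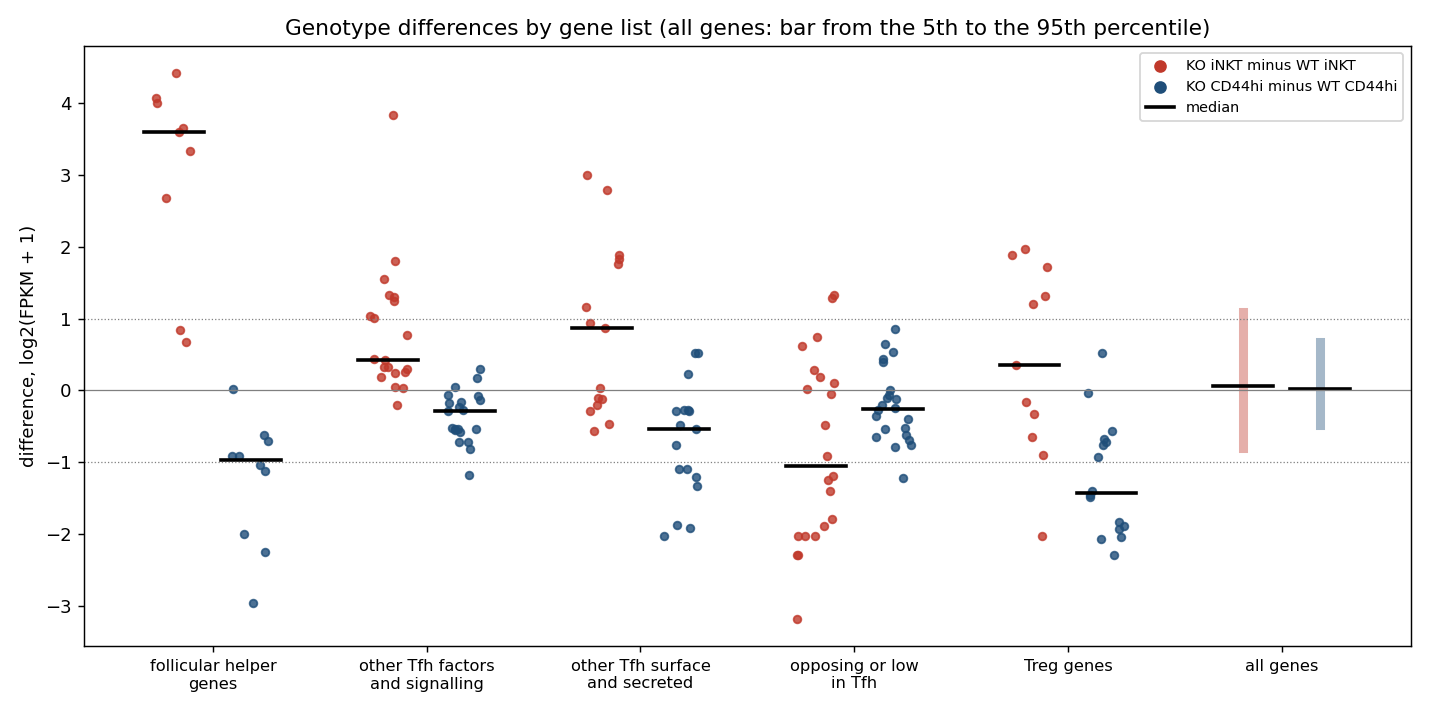
Points give the KO minus WT difference of log2(FPKM + 1) of each measured gene of a list in iNKT cells (red) and in CD44hi cells (blue); black lines are medians, and the bars at the right span the 5th to the 95th percentile of all measured genes. The follicular helper genes have medians of 3.60 in iNKT and -0.98 in CD44hi, the opposing genes -1.05 and -0.26, and all genes 0.05 and 0.01.

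Ligands, partners and paralogs of the set had smaller medians than the set itself. Of the ligands and partners, 2 of 15 measured were called higher in KO iNKT and 0 lower (median 0.15), and in CD44hi 1 of 16 was called higher and 2 lower (median -0.05). Among all genes 6.08% were called higher and 3.35% lower in KO iNKT, and 2.44% higher and 1.14% lower in KO CD44hi. Ptpn6, the gene of the phosphatase SHP-1, was called higher in KO iNKT beside Bmpr1a, at 228 FPKM against 96.4 in WT iNKT. Ptpn11, which encodes SHP-2, the phosphatase that PD-1 recruits, was called lower in KO CD44hi, at 20.9 FPKM against 43.7 in WT CD44hi. Icosl was at 6.69 FPKM in KO iNKT and 12.1 in WT iNKT, and at 23.3 in KO CD44hi and 22.3 in WT CD44hi. Of the paralogs, 3 of 10 measured (Il4, Ccr7 and Cd276) were called higher in KO iNKT, against 6.08% of all genes, and Cxcr3 was called lower (median 0.57), and in CD44hi 1 of 13 was called higher and 1 lower, Ctla4 (median -0.00). Il4 and Ccr7 also count in lists described above. The 11 PRC2 genes had no member called in either pair (median 0.12 in iNKT, 0.04 in CD44hi).

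Transcripts of other cell types were present in the CD44hi libraries and differed between the genotypes there. Beside the counts that follow, 2.44% of all measured genes were called higher and 1.14% lower in KO CD44hi. In KO iNKT these shares were 6.08% and 3.35%. Of 18 B cell genes, 17 were measured in the CD44hi pair, 3 were called higher in KO CD44hi and 0 lower (median 0.58). In the iNKT pair 3 of the 18 were measured. Of these, Pou2af1 was called higher in KO iNKT, at 4.09 FPKM against 0.737 in WT iNKT, Cd72 was called lower, at 3.59 in KO iNKT and 23.9 in WT iNKT, and Cd37 was not called. Without these 3 genes, left out after their values were seen, the remaining 15 summed to 2.32 FPKM in KO iNKT and 2.36 in WT iNKT, and to 168 in KO CD44hi and 86.3 in WT CD44hi. Of the 18, 7 were listed at 0 in KO iNKT and 9 in WT iNKT. B cells also express Cxcr5, Cd200 and Bcl6, and these 3 were lower in KO CD44hi than in WT CD44hi. Of the 17 B cell genes measured in that pair, 15 had differences above 0 and 2, Cd22 and Pou2af1, below 0. The part of B cells in the levels of Cxcr5, Cd200 and Bcl6, in either pair, was not tested. Markers of iNKT cells differed as well: Zbtb16, Klrb1c and Plac8, 3 of 6, were called higher in KO CD44hi and 0 lower, with Zbtb16 at 41.4 FPKM in KO CD44hi and 4.30 in WT CD44hi; the list median was 1.31. In the iNKT pair the same list had 3 of 6 called lower in KO iNKT and 2 higher, Zbtb16 and Slamf6 (median -1.12). Those lower were Cxcr6, at 94.6 FPKM in KO iNKT and 468 in WT iNKT, Il2rb, at 198 in KO iNKT and 814 in WT iNKT, and Plac8, at 60.1 in KO iNKT and 155 in WT iNKT. The part of these differences in the levels of the follicular helper genes was not tested. NK cell genes had 3 of 5 measured called higher in KO iNKT and 1 lower (median 1.05), with Gzma at 89.0 FPKM in KO iNKT and 1.72 in WT iNKT, Eomes at 3.90 in KO iNKT and listed at 0 in WT iNKT, Klra8 at 3.33 in KO iNKT and 1.09 in WT iNKT, and Prf1 at 1.45 in KO iNKT and 11.6 in WT iNKT. In CD44hi 1 of 5 NK cell genes was called higher and 0 lower (median -0.63), and their part in the results was not tested either. Markers of plasmacytoid dendritic cells were higher still, with 9 of 10 called higher in KO CD44hi (median 2.22). Siglech was at 75.7 FPKM in KO CD44hi and 11.1 in WT CD44hi and listed at 0 in both iNKT libraries. Myeloid genes had 1 of 15 called higher in KO CD44hi (Tyrobp, at 305 FPKM against 121 in WT CD44hi; list median 0.11), red cell genes 5 of 5 (median 2.14) and plasma cell genes 2 of 5 (median 0.77), with 0 called lower in each. The T cell genes themselves had 0 of 12 called in CD44hi (median -0.33) and 2 of 12 lower in KO iNKT (median -0.02). These were Thy1, at 82.7 FPKM in KO iNKT and 449 in WT iNKT, and Cd2, at 63.3 in KO iNKT and 166 in WT iNKT, while Cd3e was at 307 FPKM in KO iNKT and 357 in WT iNKT, and at 329 in KO CD44hi and 308 in WT CD44hi.

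**Figure D5:**
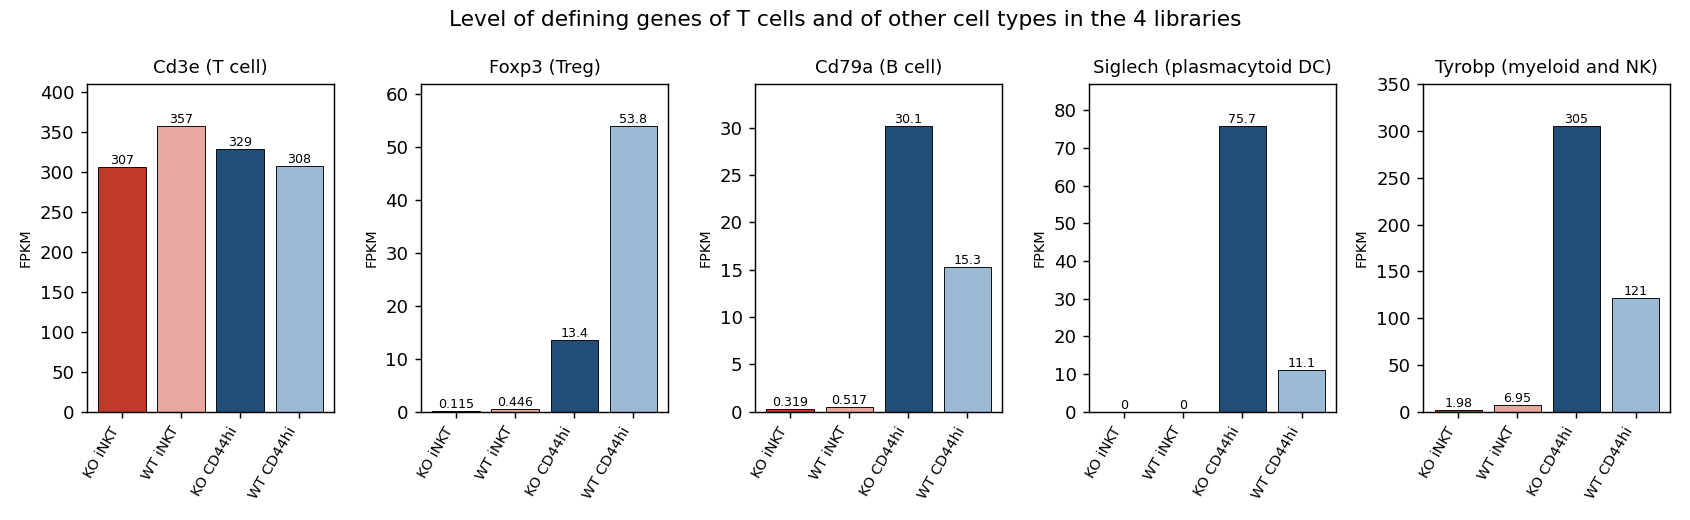
Bars give the FPKM of defining genes of T cells (Cd3e), regulatory T cells (Foxp3), B cells (Cd79a), plasmacytoid dendritic cells (Siglech) and myeloid and NK cells (Tyrobp) in the 4 libraries, linear axis from 0, 1 library per group. Cd3e lies between 307 and 357 in all 4, whereas Foxp3 is at 13.4 in KO CD44hi and 53.8 in WT CD44hi, and Siglech at 75.7 in KO CD44hi and 11.1 in WT CD44hi.

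Regulatory T (Treg) genes moved in CD44hi together with the follicular helper genes. Of 16, 9 were called lower in KO CD44hi and 0 higher (median -1.43), against 1.14% lower and 2.44% higher among all genes. Il10 (log2 difference -2.30), Lrrc32 (-2.07) and Klrg1 (-2.05) differed most. Foxp3, the Treg factor, was at 13.4 FPKM in KO CD44hi and 53.8 in WT CD44hi, a ratio of 0.249 (0.234 to 0.266). In iNKT cells Foxp3 was at 0.115 FPKM in KO iNKT and 0.446 in WT iNKT. There 5 of 11 measured Treg genes were called higher and 1 lower (median 0.35), against 6.08% higher and 3.35% lower among all genes. Nrp1 was among those higher, at 37.6 FPKM in KO iNKT and 8.84 in WT iNKT. The part of Treg cells in the levels of the follicular helper genes, in either pair, was not tested. Proliferation genes were above 0 in 7 of 7 in the iNKT pair with 1 called higher (median 0.75), and 0 of 7 were called in CD44hi (median -0.16).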

How the data were processed

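RNA was measured in 4 libraries of sorted mouse spleen cells, 1 per group, made with the TruSeq RNA kit v2 per the labels' protocols. The authors deposited FPKM values by gene symbol, per the file headers. Cufflinks 2.0.2, TopHat 1.3.2, Bowtie2 2.0.0 and the build mm10 are listed in the submitters' processing notes. Annotation, filters and strand setting are not given in the sources used here.

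Values of the 240 symbols that stand on several rows were added up. In the CD44hi files 26 symbols that had become dates or numbers were left out, as were 771 small RNA symbols, which left 22487. The worth of 1 fragment came from the lowest steps of FPKM times length in 3029 genes with a single transcript of at least 3000 bases in GENCODE M21. This step was tested on data simulated from whole fragments, so that test could not show if the deposited values follow such steps. In the libraries, 71.2% to 75.6% of low values lay within 0.15 of a whole fragment. Fragments per gene used the longest transcript. The pseudocount was 1 FPKM, the minimum 1 FPKM in 1 library and the call 2-fold. Differences on the log2(FPKM + 1) scale understate those of low genes. Sequences are RefSeq's for GRCm38.p6. Python 3.11.15, numpy 2.4.6, pandas 2.3.3 and scipy 1.17.1 were used.

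All 10 genes and the 10 genes nearest in profile were named. The lists overlap in part, so their counts are not of separate genes. Il4, Ccr7, Ctla4, Btla, Folr4, Il2ra and Pou2af1, among others, count in several lists. For each list, up to 5 genes with the largest differences per genotype pair plus fixed regulators were set for naming. Only part of these are given here and no rule set which, so larger differences in a list can go unprinted. Ddx3y, Bcl9l, Ralgps1, Xist, Gpr183, Cxcl13 and the other list genes given for a count were chosen after their values were seen. The members and lists were chosen with earlier results of these data known.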

Additional observations from a re-analysis of the deposited data

Results flagged for a closer look

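For 4 genes the KO library lay at least 2-fold above WT in iNKT cells and at least 2-fold below it in CD44hi cells, and this opposition of direction was what marked them for a closer look. The difference between the KO minus WT differences, iNKT minus CD44hi, on the log2(FPKM + 1) scale was 7.38 for Angptl2, 5.91 for Il21, 5.19 for Pdcd1 and 4.37 for Cxcr5. With 1 library per group these differences were not tested.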

How the results depend on the processing

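Each count was recomputed under 10 alternatives (pseudocounts of 0.1 and 5 FPKM, no filter, a filter of 5 FPKM, median centring, upper quartile scaling, scaling to summed CD3 genes, a 1.5-fold rule, plain ratios, and leaving out symbols on several rows). In the iNKT pair the 7 genes called higher were called under all 10, with Bcl6 and Icos added under the 1.5-fold rule, and 0 were called lower. In the CD44hi pair 9 genes were called lower under the 1.5-fold rule, 7 under CD3 scaling (Tox2 and Cd200 added) and 4 with a pseudocount of 5 FPKM or upper quartile scaling, where Cxcr5 was lost. CD3 scaling moved the median of all genes in that pair to -0.11, and Icos, at 0.02 as reported, was below 0 there (-0.12) and under median centring. The gene called higher in WT iNKT than in WT CD44hi under the 1.5-fold rule (1, against 0) was Icos. Genes called lower in KO iNKT than in KO CD44hi numbered 0 with a pseudocount of 5 FPKM or a filter of 5 FPKM and 2 under upper quartile scaling or the 1.5-fold rule, against 1; upper quartile scaling moved the median of all genes there to -0.22. Over the alternatives, 198 to 1545 genes in all were called higher in KO iNKT (658 as reported) and 173 to 940 lower (363), and 88 to 731 higher in KO CD44hi (277) and 35 to 394 lower (129). With CD3 scaling 218 were higher and 159 lower in KO CD44hi, 538 higher and 896 lower in KO iNKT against KO CD44hi (348 and 1041 as reported; 236 and 1343 under upper quartile scaling), and 929 and 504 in the difference of differences (721 and 631). No paired analysis was possible because each group has 1 library. Depth limits the ratios of Il21, Angptl2, Sostdc1, Tox2 and Cxcr5 in iNKT cells.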
